A study of Urocitellus parryii with 24 samples.

Results

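The genes described here are the 43 whose symbols begin with RPL, RPS, MRPL, MRPS, EIF, or EEF among the 1329 genes that the study lists. Each of these was paired with a single probe of the 9600 cDNA probes on the array. Of the 43 genes, 19 encode proteins of the cytosolic ribosome, 10 encode proteins of the mitochondrial ribosome, and 9 encode translation factors. The other 5 share only the prefix. These are RPS6KB1 (the S6 kinase), EIF2AK1 (the heme-regulated kinase of eIF2), EIF2C1 (an older symbol of an Argonaute protein), EEF1E1 (a scaffold protein of the aminoacyl-tRNA synthetase complex), and RPL7L1 (a relative of RPL7). The study listed genes that differed between seasonal states on these same arrays and kept the probe with the lowest p of each gene. The number of listed genes that pass a test between those states is therefore a description of the list and not independent evidence.

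RNA came from the liver of the Arctic ground squirrel (AGS, Urocitellus parryii), a hibernating rodent trapped in the wild, with 1 animal on each of 24 nylon membranes. There were 9 animals in torpor (T), of which 4 were early and 5 late in a torpor bout, and 8 in arousal episodes (A), of which 4 had just rewarmed and 4 were late in the episode. All T and A animals were deprived of food during hibernation. The control was 7 summer active animals at normal body temperature, which the study calls post-reproduction (P). Torpid animals were killed without anesthesia and the A and P animals under isoflurane, so that anesthesia and torpor cannot be told apart. In liver tissue, fewer cells of a type and less RNA per cell cannot be told apart either. Symbols are those of the study, and 38 of the 43 were found in the RefSeq annotation of the AGS (assembly mUroPar1.hap1).

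The level of a gene is the log2 of its background-subtracted signal over the median of all probes on the same membrane, so that a difference of 1 is a change of 2-fold. The arrays had median signals of 54.1 to 132 intensity units with backgrounds of 13.3 to 19.9, and precision is limited by how many arrays there are. The membranes came from filter sets that the scanner files call A1 and A2. All 9 T, 7 A, and 2 P arrays were on A1, and 5 P arrays and late arousal 2 were on A2. Animal identifiers also differed with season. They begin with 04 for 7 T, 7 A, and 1 P animals and otherwise for 2 T, 1 A, and 6 P animals. Of the 43 genes, 41 had a signal over 2 times background on all arrays. MRPS2 was dim, with 10 of 24 arrays over that bound, and MRPS14 reached it on the 18 A1 arrays and on 0 of the 6 A2 arrays.

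Cytosolic ribosomes are built of ribosomal RNA and a fixed set of proteins of a large (RPL) and a small (RPS) subunit, which are needed mostly in equal numbers. Initiation factors of the eIF3 and eIF4 groups bring the small subunit to the cap of an mRNA and unwind its leader, and elongation factors deliver aminoacyl-tRNA. Mitochondria hold a ribosome of their own, whose MRPL and MRPS proteins are made in the cytosol and which translates the few messages of the mitochondrial genome. In torpid hibernators, protein synthesis is known to be strongly depressed and to resume when the animal rewarms.

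All 19 cytosolic ribosomal protein genes had a higher mean level in T than in A, by 0.29 to 1.12. Under quantile normalization of the arrays this held for 18 of 19, as RPL9 turned to -0.082. The median of the 19 differences was 0.63, while the median over all probes was 0.046. Of the 43 genes, 2 were called between T and A (limma, adjusted p under 0.05), and both rose in T. Among them was RPL3, a protein close to the site of peptide bond formation. Of all 9598 probes tested, 0.469% were called, 0.385% higher and 0.0834% lower in T.

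The level of RPL3 had a lowest, median, and highest value of 1.64, 2.35, and 2.74 over T arrays, and of 0.32, 1.19, and 2.30 over A arrays. Late arousal 1 alone among the 8 A arrays reached into the range of T. The difference was 1.01 ± 0.21 (SE, limma, adjusted p = 0.0211). The call of RPL3 was lost under quantile normalization, where the difference was 0.84 (limma, adjusted p = 0.117), and without late torpor 5.

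The largest difference between T and A belonged to RPL10A, a protein of the mobile stalk where spent tRNA leaves the ribosome. Its level was 2.93, 3.41, and 4.75 over T arrays (lowest, median, and highest) and 1.16, 2.55, and 3.02 over A arrays, with late torpor 3 well above and late arousal 2 well below the rest. The groups overlapped, and the difference of 1.12 ± 0.27 (SE) had an adjusted p of 0.051 by limma. RPL12, at the base of the stalk that binds elongation factors, differed by 0.92 ± 0.22 (SE, limma, adjusted p = 0.0509). RPL30 differed by 0.71 ± 0.17 (SE, limma, adjusted p = 0.0509). Small subunit genes were spread over the same range, with RPS15A at 0.83, RPS12 at 0.60, RPS6, which the S6 kinase phosphorylates, at 0.57, and RPS27A, which is made as a fusion with ubiquitin, at 0.40.

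**Figure D1:**
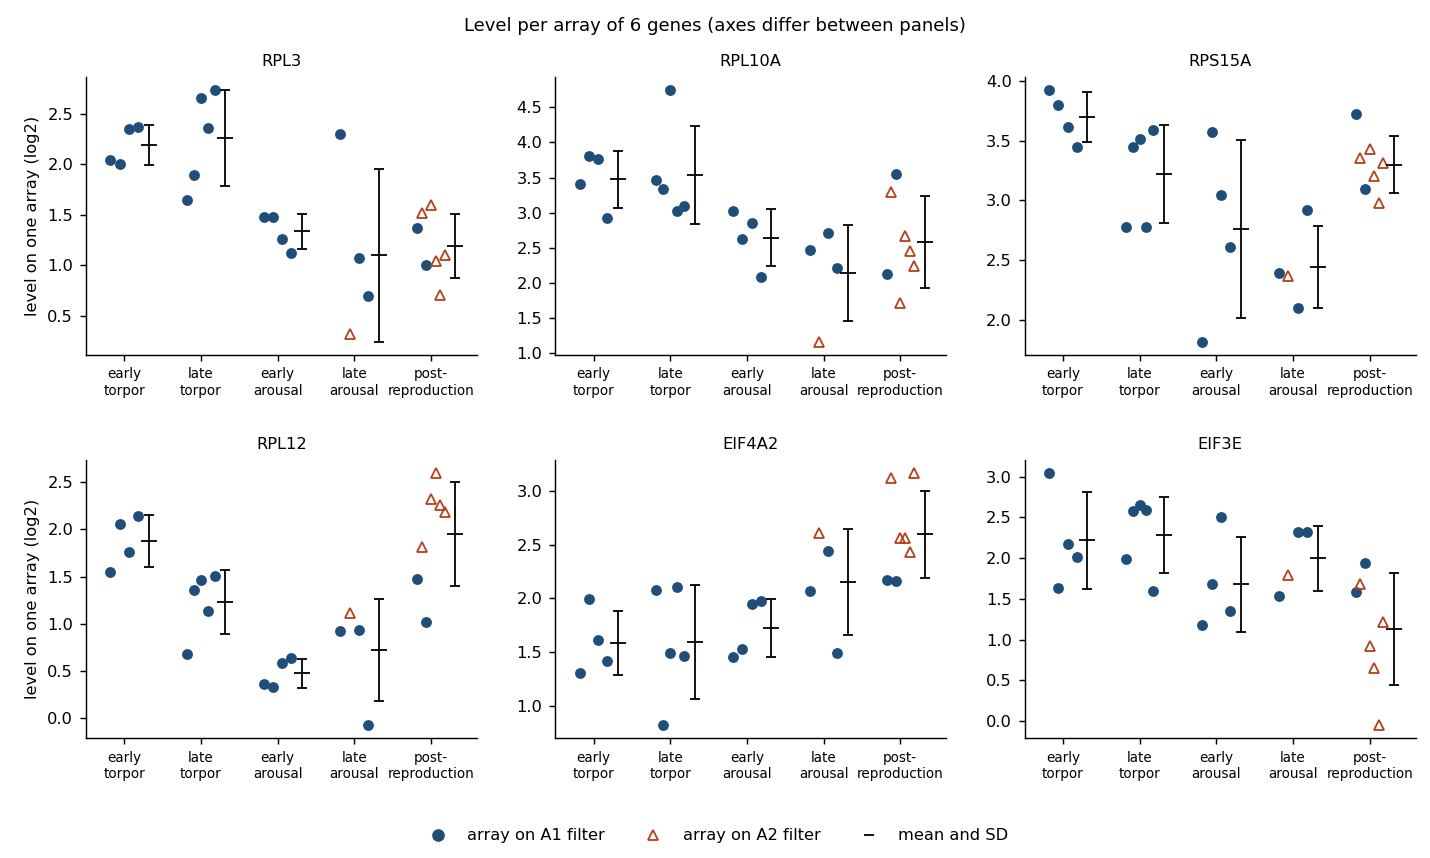
Level on each array (log2, vertical axis) of RPL3, RPL10A, RPS15A, RPL12, EIF4A2, and EIF3E in the 5 status groups (horizontal axis), with filled circles for A1 filters, open triangles for A2 filters, and a bar for the mean and SD of the group. RPL3 lies higher in all torpor arrays than in the arousal arrays except late arousal 1, and EIF4A2 is lower in all torpor arrays than in all post-reproduction arrays.

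**Figure D2:**
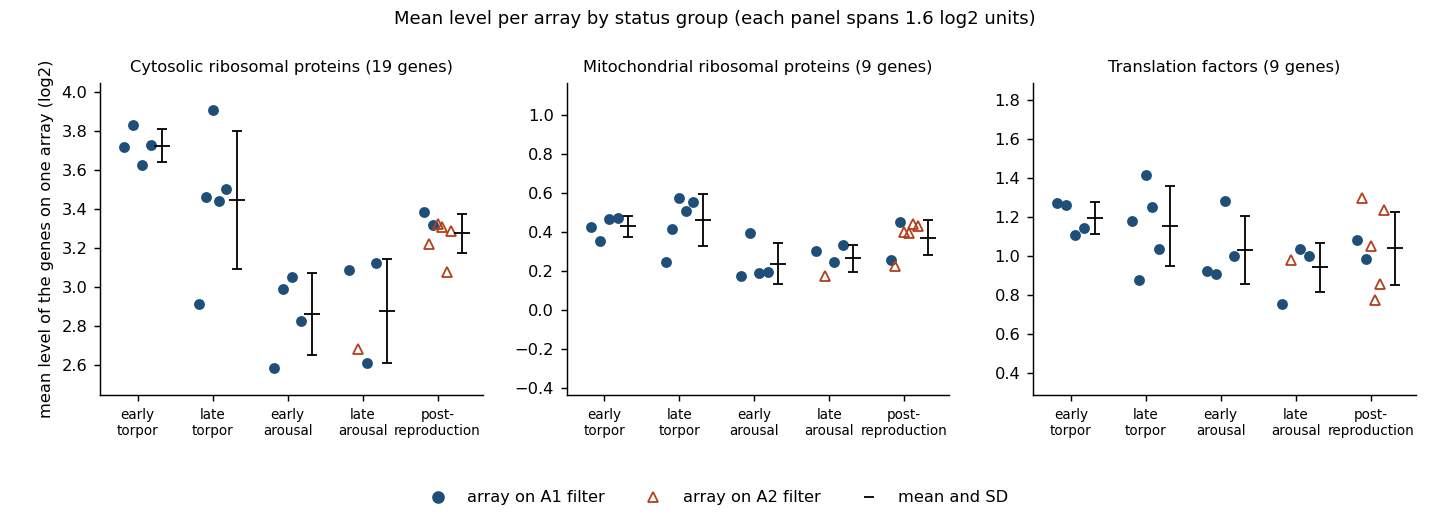
Mean level per array (log2, vertical axis) over 19 cytosolic ribosomal protein genes, 9 mitochondrial ribosomal protein genes, and 9 translation factor genes by status group (horizontal axis), with filled circles for A1 filters, open triangles for A2 filters, and bars for mean and SD. All torpor arrays but late torpor 1 lie between 3.44 and 3.91 in the cytosolic panel, and the arousal arrays lie between 2.58 and 3.12.

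Averaged over the 19 genes, the cytosolic level was 3.73 ± 0.084 in early torpor (SD, n = 4), 3.45 ± 0.35 in late torpor (SD, n = 5), 2.86 ± 0.21 in early arousal (SD, n = 4), 2.88 ± 0.27 in late arousal (SD, n = 4), and 3.28 ± 0.10 in P (SD, n = 7). Late torpor 1, at 2.92, stood apart from the other T arrays, which lay between 3.44 and 3.91. For 18 of 19 genes both torpor group means were above both arousal group means, and for 17 of 19 the lowest of the 5 group means was in an arousal group. Without late torpor 1, 10 of the 43 genes were called between T and A, all of them higher in T, where 0.698% of all probes were, 0.583% higher. With filter set added to the fit as a block, 8 genes were called, where 1.29% of all probes were, and among these were RPL12, RPL30, RPL3, RPL27, RPL10A, RPS15A, and RPL41. Over A1 filters only, 5 were called, RPL12, RPL27, RPL3, and RPL30 among them, where 1.38% of all probes were.

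Most of the cytosolic ribosomal protein probes are bright, and bright probes in general were higher in T than in A. Over the 1028 probes with a mean level between 2 and 4, the median difference between T and A was 0.30, against 0.67 for the 10 cytosolic ribosomal protein genes among them. Over the 506 probes above 4 it was 0.45, against 0.60 for the 5 such genes. For the 4 genes with a level between 0 and 2, which are RPL3, RPL12, RPL28, and RPL36A, the median was 0.76, against 0.071 for all 3178 probes of that class. The median signal of an array, by which levels are divided, also moved with state, with a middle value of 79.5 over T, 108 over A, and 76.1 over P arrays. Under quantile normalization the medians of the bright classes fell to 0.037 and 0.050 for all probes and to 0.42 and 0.21 for the cytosolic genes. The median of all 19 genes was then 0.40, and 0 of the 43 genes were called by limma, where 0.177% of all probes were. The part of array brightness in the difference was not tested beyond these values.

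**Figure D3:**
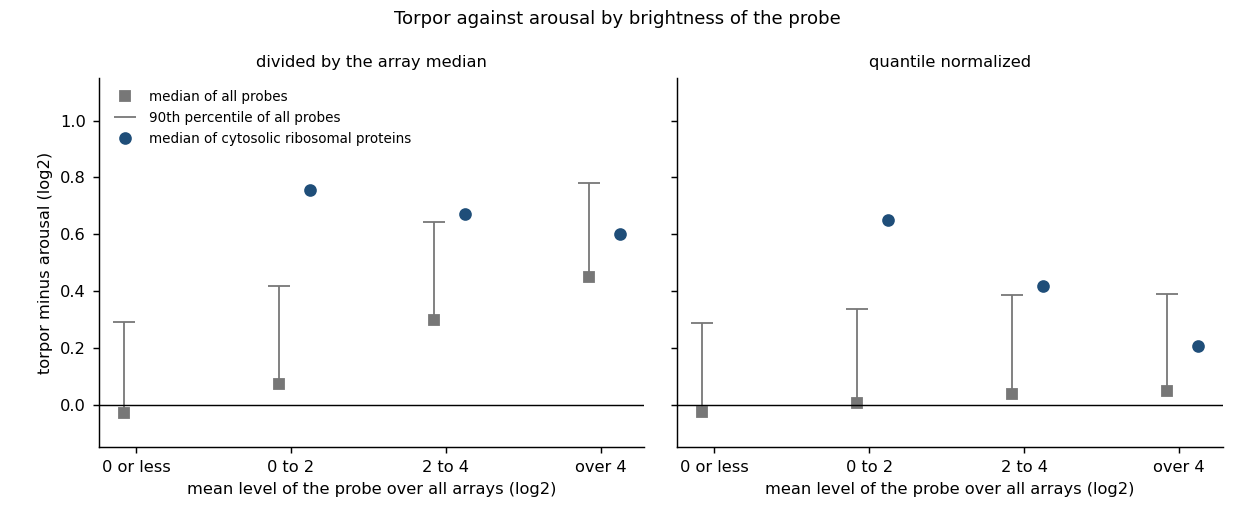
Difference between torpor and arousal (log2, vertical axis) for probes in 4 classes of mean level (horizontal axis), with levels divided by the array median on the left and quantile normalized on the right. Squares are medians over all probes, dashes their 90th percentiles, and circles medians over the cytosolic ribosomal protein genes, of which 4, 10, and 5 fall in the classes above 0; the circles lie above the squares in each of these classes on both sides.

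Between A and P, 16 of the 19 cytosolic genes had a lower mean in A, but only 11 of 19 under quantile normalization and 14 of 19 with normexp background correction. It was 19 of 19 with the filter block and 18 of 19 on A1 filters. The median of the differences was -0.43, against -0.053 over all probes. It was -0.11 under quantile normalization, -0.18 with normexp, -0.48 with the filter block, and -0.43 on A1 filters. Bright probes in general were lower in A as well. Over the 1028 probes with a mean level between 2 and 4 the median was -0.30, against -0.43 for the 10 cytosolic genes. Over the 506 probes above 4 it was -0.44, against -0.48 for the 5 such genes. Under quantile normalization the medians of these classes were 0.015 and 0.038 for all probes and -0.12 and -0.053 for the cytosolic genes. Of all 43 genes, 9 were called between A and P, 3 higher and 6 lower in A (limma), where 8.45% of all probes were called, 2.62% higher and 5.83% lower. Among them RPL12, RPS27A, RPL27, and RPS15A are cytosolic ribosomal protein genes, and all 4 were lower in A. Under quantile normalization RPL12 alone of these stayed called, at -1.23 (limma, adjusted p = 0.00235).

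RPL12 had the largest fall. Its level was -0.074, 0.61, and 1.11 over A arrays (lowest, median, and highest), 0.68, 1.51, and 2.14 over T arrays, and 1.02, 2.18, and 2.60 over P arrays. The A arrays overlapped the P arrays only by late arousal 2, which is on the A2 filters. The difference between A and P was -1.35 ± 0.23 (SE, limma, adjusted p = 0.000731), and with the filter set as a block it was -0.86 with an adjusted p of 0.0552. RPL12 was also higher on A2 than on A1 filters by 0.84 ± 0.25 (SE, limma, adjusted p = 0.0187). On A2, late arousal 2 had 1.11 and the 5 P arrays 1.81 to 2.60, and on A1 the A arrays had -0.074 to 0.93 and the 2 P arrays 1.02 and 1.48. RPL12 was thus lower in A than in P within each filter set.

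RPS27A lay at 1.66, 2.81, and 3.62 over A arrays and at 2.85, 3.66, and 4.12 over P arrays, and it fell by 0.93 in A (limma, adjusted p = 0.0225). The filter block left a difference of -0.46 (limma, adjusted p = 0.542). The highest positive differences between A and P were those of RPL9, at 0.51 ± 0.24 (SE), and RPL36A, at 0.24 ± 0.28 (SE), and neither was called. Under quantile normalization RPL9 was called, at 0.92 (limma, adjusted p = 0.026), but both genes turned negative with the filter block, to -0.050 and -0.23.

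Between T and P, 17 of the 19 cytosolic genes had a higher mean in T, with a median difference of 0.20 against -0.016 over all probes. Of the 43 genes 17 were called, 12 higher and 5 lower in T (limma), where 9.86% of all probes were called, 5.5% higher and 4.36% lower. Of the 12, 5 are cytosolic ribosomal protein genes. Among them are RPL3 at 1.04, RPL10A at 0.93, RPL36A at 0.83, and RPL9 at 0.80. The filter block left RPL10A at 0.39, RPL36A at 0.26, and RPL9 at 0.12, and on A1 filters RPL36A was at 0.17. The comparisons of T and of A with P share the P arrays.

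RPL3 had P levels of 0.71, 1.10, and 1.60 (lowest, median, and highest), all below its lowest T level of 1.64, and its adjusted p was 0.00391 by limma. Of all probes, 0.406% had T arrays wholly above P arrays. RPL10A had P levels of 1.71, 2.46, and 3.55 and overlapped with T (limma, adjusted p = 0.0342). The lowest differences were those of RPS27A, at -0.53 ± 0.25 (SE), and RPL12, at -0.43 ± 0.23 (SE), and neither was called. With the filter set as a block, 0 of the 43 genes were called between T and P, where 0.969% of all probes were, and RPL3 kept a difference of 0.76 (limma, adjusted p = 0.286). Over A1 filters only, with 2 P arrays, MRPL52 was the 1 gene called (higher in T), where 0.896% of all probes were called and 0.313% were higher.

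**Figure D4:**
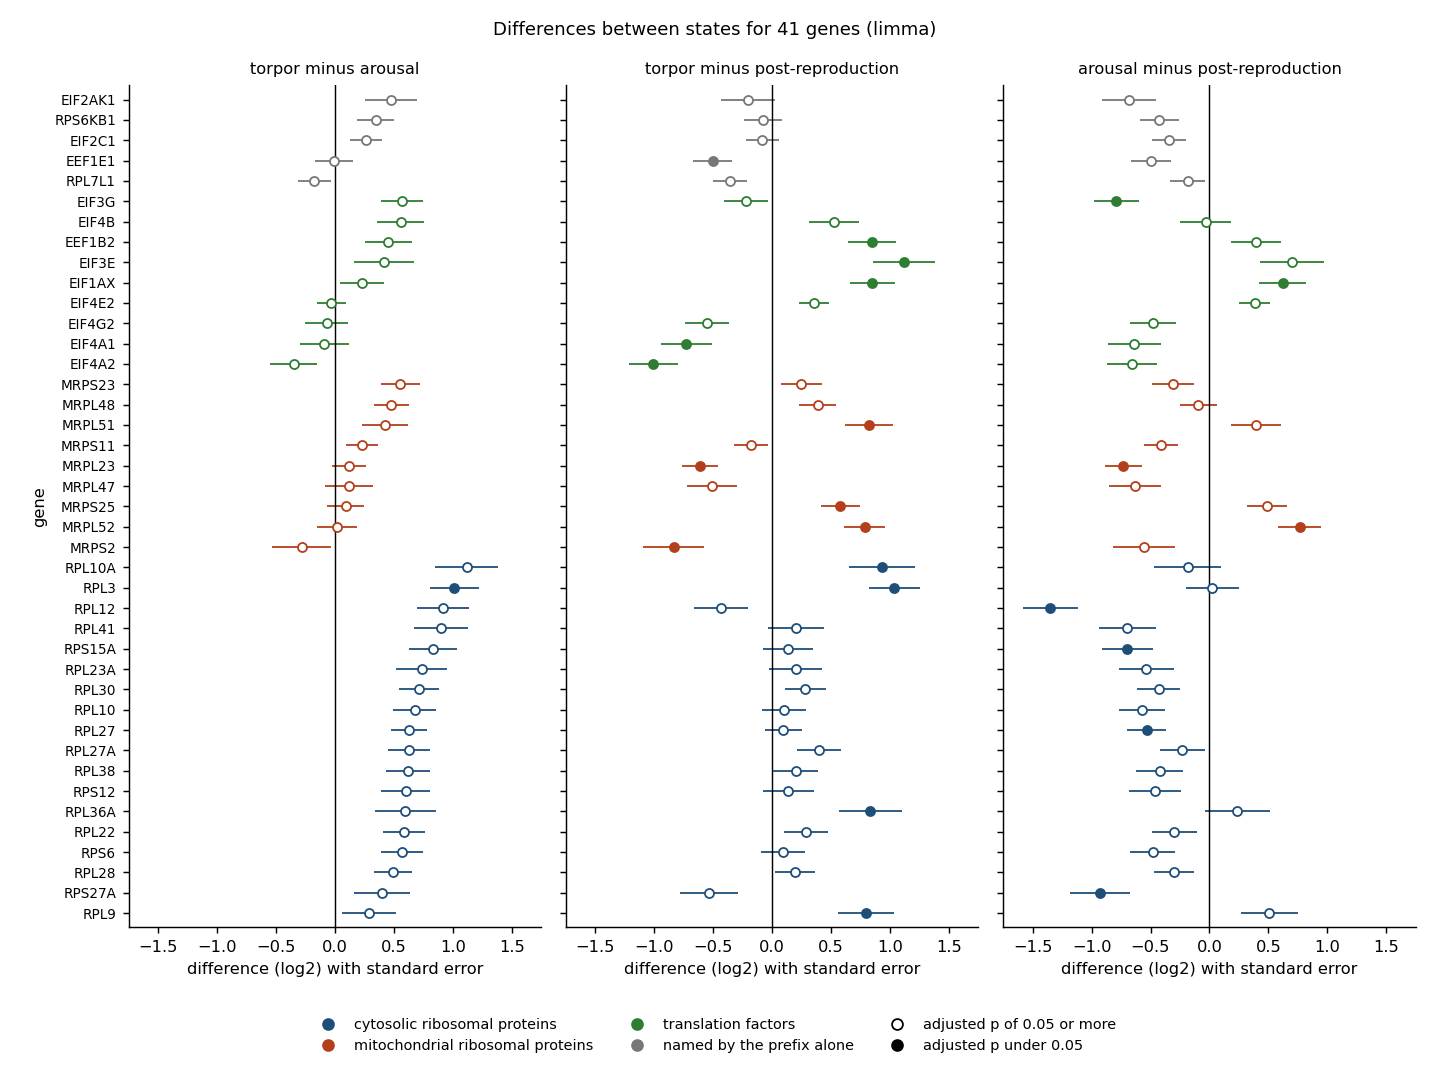
Differences in level (log2, horizontal axis) with standard errors for 41 genes (vertical axis, without MRPS14) between torpor and arousal, torpor and post-reproduction, and arousal and post-reproduction; colors mark cytosolic and mitochondrial ribosomal proteins, translation factors, and genes named by the prefix alone, and filled points have an adjusted p under 0.05. All cytosolic ribosomal protein genes shown lie to the right of 0 in the left panel (RPL9 does not under quantile normalization), while mitochondrial ribosomal proteins and factors lie on both sides of 0 in the other 2 panels.

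Translation factors did not share a direction. Between T and A the 9 factors had a median difference of 0.23, with 5 above and 4 below 0, and 0 were called. EIF3G, a subunit of the eIF3 scaffold, differed by 0.57 ± 0.18 (SE, limma, adjusted p = 0.117), with levels of -0.51, -0.019, and 0.43 over T and -1.21, -0.52, and 0.10 over A arrays. EIF4B, which stimulates the helicase eIF4A, differed by 0.56 ± 0.20 (SE), with 2.29, 2.85, and 3.64 over T and 1.88, 2.27, and 2.75 over A arrays. The groups overlapped for both genes. EIF4A2 and EIF4A1 lay at -0.35 and -0.089, and the sign of EIF4A1 turned to 0.026 over A1 filters only.

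Against P, 5 factors were called in T, 3 higher and 2 lower (limma), where 5.5% of all probes were called higher and 4.36% lower. EIF4A2, which encodes a form of the eIF4A helicase, had T levels of 0.82, 1.49, and 2.10 (lowest, median, and highest), A levels of 1.45, 1.96, and 2.61, and P levels of 2.16, 2.56, and 3.17. All T arrays were below all P arrays, as for 0.406% of all probes. The difference of -1.01 ± 0.21 (SE, limma, adjusted p = 0.00376) was -0.53 with the filter block (adjusted p = 0.464). The 2 P arrays on A1 filters, at 2.17 and 2.16, were the lowest of the P arrays, and late arousal 2 on A2, at 2.61, was the highest of the A arrays.

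EIF4A1, the more widely expressed form of that helicase, also fell in T against P, by 0.73 (limma, adjusted p = 0.0339). Its levels were 0.55, 1.60, and 2.41 over T and 1.64, 2.38, and 2.53 over P arrays, so the groups overlapped. A cDNA probe of either helicase gene may bind RNA of the other, and this was not tested.

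Without filter set in the fit, the largest rise in T against P among the factors was that of EIF3E, another eIF3 subunit. It lay at 1.59, 2.18, and 3.05 over T, 1.18, 1.74, and 2.50 over A, and -0.050, 1.21, and 1.94 over P arrays, and the difference was 1.12 ± 0.26 (SE, limma, adjusted p = 0.00878). With the filter block it was 0.72 (adjusted p = 0.471), and on A1 filters 0.49. The lowest P value was that of post-reproduction 6, the array with the lowest median signal of all, at 54.1. EIF1AX, the factor eIF1A that takes part in start codon scanning, lay at -1.51, -0.47, and -0.21 over T, -1.57, -0.71, and -0.37 over A, and -1.74, -1.39, and -1.04 over P arrays. It was called in both comparisons, at 0.85 for T (limma, adjusted p = 0.00716) and at 0.62 for A (limma, adjusted p = 0.0487). Its difference between T and P was 0.55 with the filter block and 0.75 on A1 filters, where it was the largest rise of the factors. EEF1B2, which recharges the elongation factor eEF1A, was higher in T by 0.85 (limma, adjusted p = 0.0101). The filter block left EEF1B2 at 0.47 (adjusted p = 0.559).

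Between A and P, 2 factors were called, EIF1AX and EIF3G, where 8.45% of all probes were called, 2.62% higher and 5.83% lower. EIF3G had P levels of -0.17, 0.21, and 0.54 and fell by 0.79 in A (limma, adjusted p = 0.0112), and the difference with the filter block was -0.85 (adjusted p = 0.0507). EIF3E differed by 0.70 ± 0.27 (SE) and EIF4A2 by -0.66 ± 0.21 (SE), with adjusted p of 0.101 and 0.0546 by limma. The cap-binding protein gene EIF4E2 lay at 0.36 and 0.38 above P in T and A, and EIF4G2, a relative of eIF4G that lacks the site for the cap-binding protein, at -0.55 and -0.48. Neither was called.

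Mitochondrial ribosomal protein genes showed smaller differences between T and A than the cytosolic genes, as values set side by side. Over 9 of them, with MRPS14 set aside for reasons given next, the median was 0.12, with 8 above 0 and 1 below, and 0 were called. MRPS23 differed by 0.55 ± 0.17 (SE, limma, adjusted p = 0.102), at 0.84, 1.32, and 1.85 over T and 0.25, 0.77, and 1.35 over A arrays. MRPL48 differed by 0.48 ± 0.15 (SE), at 2.08, 2.42, and 2.76 over T and 1.57, 1.86, and 2.29 over A arrays. Both genes overlapped between the states. MRPS2 lay at -0.28, and this sign turned to 0.11 with normexp background correction.

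Several mitochondrial ribosomal protein genes differed by filter set. MRPS14 is the clearest case. On all 18 A1 arrays its signal was between 74.3 and 155 intensity units, over a background of 12.3 to 19.7. On the 6 A2 arrays its signal was between 9.67 and 16.2, over a background of 12.4 to 16.6. The image software marked its spot as empty on 4 of the 6 A2 arrays and on 0 of the A1 arrays.

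On A1 filters the level of MRPS14 was -0.41 to 1.11 in T, -0.46 to 0.45 in A, and 0.17 and 0.37 in P. On A2 filters it was -3.82 to -5.49 in 3 P arrays, and the other 2 P arrays and late arousal 2 had no signal above background. MRPS14 thus had no P level near the others except on A1. In the fit without filter set, which drops those 3 arrays, it counted among the genes called against P, with differences of 3.09 for T and 2.91 for A. Over A1 filters only the differences were -0.0098 and -0.19. MRPS14 was therefore set aside from every median and subgroup count, and stays only in the counts over all 43 genes.

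**Figure D5:**
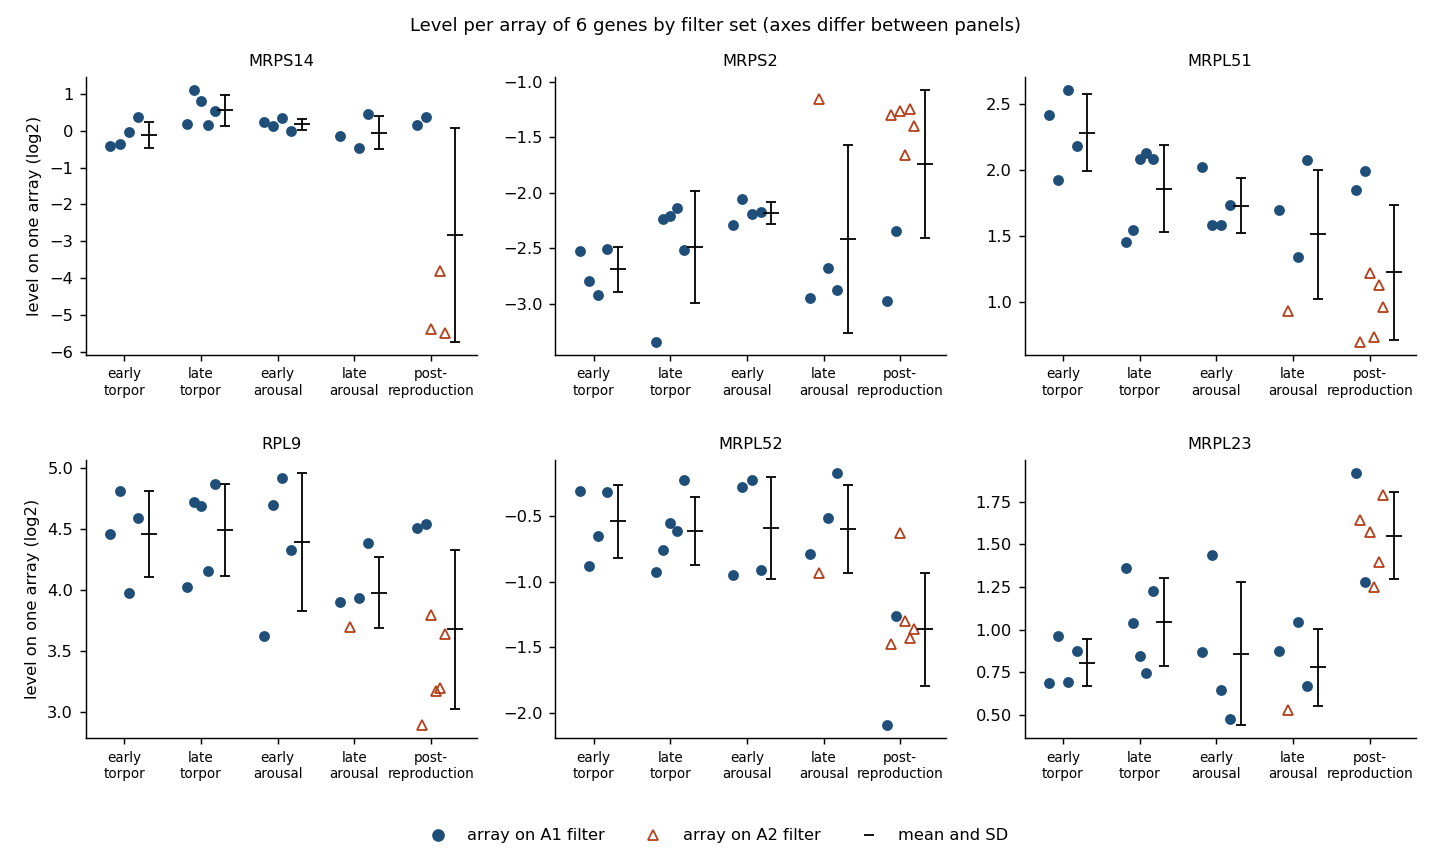
Level on each array (log2, vertical axis) of MRPS14, MRPS2, MRPL51, RPL9, MRPL52, and MRPL23 in the 5 status groups (horizontal axis), with filled circles for A1 filters, open triangles for A2 filters, and bars for mean and SD. MRPS14, MRPS2, and MRPL51 separate by filter set, also for the single arousal array on A2 (missing for MRPS14). P arrays of both filter sets lie high for MRPL23, with overlap. For MRPL52 they lie low except post-reproduction 4 on A2, which at -0.63 is within the range of the torpor arrays.

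A fit with state and filter set together called 9 of the 43 genes between A2 and A1 filters, 5 higher and 4 lower on A2, where 20.1% of all probes were called, 9.8% higher and 10.3% lower. MRPS2 was higher on A2 by 1.29 ± 0.23 (SE, limma, adjusted p = 0.00028), with -1.66 to -1.24 in P arrays and -1.16 in late arousal 2, against -2.98 and -2.35 in P, -2.95 to -2.06 in A, and -3.35 to -2.14 in T on A1. MRPL51 was lower on A2 by 0.90 ± 0.21 (SE, limma, adjusted p = 0.00316). It had 0.70 to 1.22 in P arrays and 0.94 in late arousal 2 on A2, against 1.85 and 1.99 in P on A1. The single A array on A2 thus lay with the P arrays on A2 for both genes. MRPS25 and RPL9 were lower on A2, by 0.68 and 0.95, and MRPL47, EIF4G2, RPS27A, and RPL12 were higher, by 0.72, 0.67, 0.80, and 0.84.

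The calls of MRPS2, MRPL51, MRPS25, and RPL9 between T and P moved with these differences. MRPS2 was called lower in T by 0.84 (limma, adjusted p = 0.0386), and with the filter block it lay at 0.089. MRPL51, MRPS25, and RPL9 were called higher in T, by 0.82, 0.58, and 0.80 (limma, adjusted p = 0.013, 0.0273, and 0.0328), and with the filter block they lay at 0.18, 0.092, and 0.12. All 4 genes had adjusted p of 0.849 or more with the block by limma.

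MRPL52 and MRPL23, both of the large subunit of the mitochondrial ribosome, differed from P by as much with the filter block as without it. MRPL52 lay at -0.92, -0.61, and -0.22 over T, -0.95, -0.65, and -0.17 over A, and -2.09, -1.36, and -0.63 over P arrays. It was higher in T by 0.78 ± 0.18 (SE, limma, adjusted p = 0.0069) and in A by 0.77 ± 0.18 (SE, limma, adjusted p = 0.0103). With the filter block the differences were 0.87 and 0.84, with adjusted p of 0.0786 and 0.0413 by limma. The 2 P arrays on A1 lay at -2.09 and -1.26, below all T and A arrays. On A2, late arousal 2 lay at -0.93, among the 5 P arrays at -1.47 to -0.63.

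MRPL23, which lies at the exit of the peptide tunnel, was at 0.69, 0.88, and 1.36 over T, 0.48, 0.77, and 1.44 over A, and 1.25, 1.57, and 1.92 over P arrays. It fell by 0.61 in T (limma, adjusted p = 0.0125) and by 0.73 in A (limma, adjusted p = 0.00494) against P. With the filter block the differences were -0.73 and -0.83, with adjusted p of 0.0841 and 0.0159 by limma. On A1 the 2 P arrays had 1.92 and 1.28, and early arousal 2 lay between them at 1.44. On A2, late arousal 2 had 0.53 and the 5 P arrays 1.25 to 1.79. MRPL52 and MRPL23 were the 2 genes of the 43 called between A and P with the filter block, where 2.7% of all probes were called, 0.334% higher and 2.37% lower. The remaining mitochondrial genes named by their differences from P were MRPS25, at 0.49 in A, and MRPL47, at -0.63 in A, and neither was called.

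Of the genes that carry only the prefix, 0 were called between T and A. EIF2AK1, a kinase that halts initiation when heme is short, differed by 0.48 ± 0.22 (SE), with 1.35, 2.07, and 2.67 over T, 0.83, 1.42, and 2.54 over A, and 1.67, 2.00, and 2.79 over P arrays. RPS6KB1, which acts downstream of mTOR, differed by 0.34 ± 0.16 (SE), with 1.62, 1.90, and 2.09 over T, 1.01, 1.41, and 2.11 over A, and 1.46, 1.97, and 2.46 over P arrays. The groups overlapped for both kinases. All 5 genes had a lower mean in T and in A than in P, but EIF2AK1 and RPS6KB1 turned to 0.12 and 0.29 in T against P with the filter block, and to 0.24 and 0.21 on A1 filters. EEF1E1 was called in T, where it fell by 0.51 (limma, adjusted p = 0.0498). With the filter block its difference was -0.28 (adjusted p = 0.735). EEF1E1 lay at -1.96, -1.09, and -0.94 over T and -1.06, -0.84, and -0.19 over P arrays. RPL7L1 lay at -0.36 in T and -0.19 in A relative to P.

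Within a state, 0 of the 43 genes were called between early and late torpor or between early and late arousal (limma), where 0% of 9593 probes were called in each. At an unadjusted p under 0.05 by limma there were 2 genes (RPL12 and EIF1AX, both lower in late torpor) and 3 genes (MRPL47, RPS12, and RPS27A, all higher in late arousal), against 457 and 747 of all probes. In late torpor 15 of the 19 cytosolic ribosomal protein genes had a lower mean than in early torpor, with a median of -0.29, and 18 of 19 had under quantile normalization. The array late torpor 1, which had the lowest cytosolic mean of the T arrays, is among the 5 of late torpor. Between the arousal stages 8 of the 19 were higher late and 11 lower, with a median of -0.020.

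MRPL47 showed the lowest p between the arousal stages. Its level was -0.47, -0.40, -0.65, and 0.20 in early arousal and 0.62, 1.02, 0.51, and 0.48 in late arousal. All late arousal arrays were above all early ones, but the difference of 0.99 ± 0.23 (SE) had an adjusted p of 0.343 by limma. The share of all probes with such a separation of the arousal stages was not counted. MRPL47 was also the gene picked by its low p. The mean of MRPL47 was 0.14 in early torpor, 0.40 in late torpor, and 0.80 in P.

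From late torpor to early arousal, all 19 cytosolic ribosomal protein genes had a lower mean, with a median of -0.57 against -0.063 over all probes, and 17 of 19 had under quantile normalization, with a median of -0.14. None of the 43 genes was called (0 by limma, 13 at an unadjusted p under 0.05), where 0.667% of all probes were, 0.0104% higher and 0.657% lower in early arousal. RPL10, which joins the large subunit last and is needed for it to bind the small one, came closest. It had 4.54, 5.59, 5.08, 5.61, and 5.64 in late torpor and 4.75, 4.42, 3.90, and 4.34 in early arousal. Late torpor 1 overlapped with early arousal, and the difference was -0.94 ± 0.24 (SE, limma, adjusted p = 0.0613). With the filter block it was the 1 gene called (adjusted p = 0.0469), where 1.54% of all probes were, although all 9 of these arrays are on A1.

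From late arousal to early torpor, all 19 cytosolic genes had a higher mean in early torpor, with a median of 0.83 against 0.023 over all probes. All 19 also had under quantile normalization, with a median of 0.66. Again 0 of the 43 genes were called by limma, where 0% of all probes were (0.0104% with the filter block), with 25 genes and 769 probes at an unadjusted p under 0.05. RPS15A, a small subunit protein, had 3.92, 3.79, 3.61, and 3.44 in early torpor and 2.39, 2.37, 2.10, and 2.92 in late arousal. The groups did not overlap, and the difference was 1.25 ± 0.28 (SE, limma, adjusted p = 0.219). How many of all probes separate these 2 stages was not counted. These stages belong to the arrays of the comparison of T with A and do not add evidence to it.

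Other genes of translation were taken from a list of 70 genes for ribosome assembly, aminoacyl-tRNA synthetases, nascent chain factors, and further translation factors, of which 20 are among the paired genes and so share the study's selection for differences between states. Over these 20 the median was 0.21 for T minus A, 0.15 for T minus P, and 0.34 for A minus P. Over all probes it was 0.046, -0.016, and -0.053. With the filter block the medians of the 20 genes were 0.14, 0.11, and 0.013, against 0.042, 0.0051, and -0.033 over all probes. The higher median in A than in P was thus mostly lost with filter set in the fit. Under quantile normalization the medians of the 20 genes were 0.079, 0.17, and 0.39. Between T and A, 1 was called higher in T and 0 lower, where 0.385% and 0.0834% of all probes were. It was BTF3, a subunit of the complex that binds nascent chains at the ribosome exit, with a difference of 0.68 ± 0.13 (SE, limma, adjusted p = 0.011). BTF3 was likewise lower in A than in P by 0.71 (limma, adjusted p = 0.00201), and with the filter block by 0.72 (limma, adjusted p = 0.0152). Quantile normalization took away both calls.

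In T against P, 5 of the 20 were called higher and 2 lower, where 5.5% and 4.36% of all probes were. The higher ones were NPM1, RRP15, and UTP18, which act in ribosome assembly, the reinitiation factor DENR, and TPT1, by 1.06 to 1.24. The filter block left NPM1 at 0.62, UTP18 at 0.41, DENR at 0.28, and TPT1 at 0.14, and RRP15 turned to -0.26. The lower ones were the nucleolar methyltransferase NOL1 and the ribosome recycling factor ABCE1, by 1.01 and 0.93. The block left ABCE1 at -0.45 and NOL1 turned to 0.023.

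In A against P, 6 of the 20 were called higher and 3 lower, where 2.62% and 5.83% of all probes were. The higher ones were NPM1, RRP15, the nucleolar methyltransferase fibrillarin (FBL), DENR, and the phenylalanyl-tRNA synthetase genes FARSA and FARS2, and the lower ones were BTF3, the poly(A)-binding protein gene PABPC1, and the mitochondrial elongation factor gene TSFM. RRP15 turned to -0.029 with the filter block, and FBL, FARSA, and FARS2 were then at 0.31, 0.51, and 0.25. With the filter block, 0 of the 20 were called between T and P, where 0.969% of all probes were, and BTF3 alone between A and P, where 2.7% were.

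Of the 40 marker genes of liver cell types, 8 are in the study's list of genes that differed between states and could be paired with a probe. None of the Kupffer, endothelial, or lymphocyte markers is in that list, which does not say whether the array holds them. The mean over the hepatocyte markers ALB, APOB, TTR, and SERPINA1 ranged from 6.19 to 7.20 over T, 5.60 to 6.27 over A, and 6.22 to 6.88 over P arrays. This mean was lowest in A. In T against A the 4 markers were all higher in T, ALB by 0.41, APOB by 0.86, SERPINA1 by 0.59, and TTR by 0.75. With quantile normalization these differences were 0.093, 0.47, 0.17, and 0.26. In A against P the markers did not share a direction, with ALB at 0.15, APOB at -0.15, SERPINA1 at -0.81, and TTR at -1.32. Under quantile normalization ALB and APOB lay at 0.54 and 0.27 and SERPINA1 at -0.30. APOB rose in T against A by 0.86 (limma, adjusted p = 0.011), but not under quantile normalization, where the difference was 0.47 (adjusted p = 0.326). TTR fell in A against P by 1.32 (limma, adjusted p = 0.00165), again not under quantile normalization (-0.74, adjusted p = 0.0798).

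The stellate cell genes DCN and LRAT had a mean of -0.88 to -0.20 over T, -0.62 to -0.20 over A, and -1.11 to -0.26 over P arrays. They went opposite ways in T against P, DCN by 0.70 (limma, adjusted p = 0.0407) and LRAT by -0.40 (adjusted p = 0.0903). With the filter block DCN lay at 0.16 and LRAT at -0.26. The cholangiocyte gene SOX9 had means of 0.31 in T, 0.37 in A, and 0.82 in P. Its difference between T and P was -0.51 (limma, adjusted p = 0.0385), and -0.59 with the filter block (adjusted p = 0.271). The erythroid gene HBA2 ranged from -0.039 to 2.97 over T, -1.31 to 1.27 over A, and 0.63 to 1.27 over P arrays. Its difference between T and A was 1.26 (limma, adjusted p = 0.0905). The part of these cell types in the differences above was not tested.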

How the data were processed

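Liver RNA of 24 AGS was amplified, labelled with 33P, and hybridized to nylon membranes in 1 batch. For every spot the authors deposited ImaGene 6.1.0 readings, which are intensity of signal and of local background with a flag for empty spots. They also deposited a table of the ratio of background-subtracted signal to the array median. The ratio was recomputed from the median intensities and differed from the deposited ratio by at most 4.98e-07, apart from 2297 of 230400 spots that stand at a floor of 0.002. Values are log2 of the recomputed ratio, and 668 spots at or below 0 are missing.

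Probes were paired with symbols through the state means in the study's additional file, within 0.0001. The largest distance was 5.00e-06 and the next probe lay at 0.00532 or more. The genes and the lists were chosen with earlier results of these data known. Values are given for the 2 largest rises and falls of each subgroup and comparison and for called genes. Of the 43 genes, 1 is in the totals but is not reported here. MRPS14 was set aside because its spot was marked empty on A2 arrays.

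Differences were tested with limma 3.58.1 in R 4.3.3 (lmFit and eBayes over T, A, and P, or over 5 status groups), with Benjamini-Hochberg adjustment over all probes and calls at an adjusted p under 0.05. The fit was checked on simulated arrays. Each array is a separate animal. Alternatives were normexp with an offset of 50, quantile normalization, the floor, the deposited ratio, empty spots as missing, only probes above 2 times background (7 or more arrays), a block for the filter set or for the animal identifier prefix, A1 filters only, 5 groups, the methods' test, and leaving out each array. Leaving out the 3 arrays with the fewest probes over background was added after the data were seen. No sequence of the probes was used here.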

Additional observations from a re-analysis of the deposited data

Results flagged for a closer look

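Within the status groups of 4 to 7 arrays, the level of a gene on 1 array lay far from the other arrays of its group in 13 of 224 groups checked, and chance alone gives about 1 in 20. Low values on P arrays were EEF1B2 at 0.89 on post-reproduction 6, EIF4B at 1.23 on post-reproduction 5, and RPL30 at 1.91 on post-reproduction 3. In torpor, EIF2C1 was at 0.29 on early torpor 4 (low), RPL22 at 2.11 on late torpor 1 (low), and RPL10A at 4.75 and RPL27 at 2.72 on late torpor 3 (both high). In arousal, late arousal 4 was high for EIF4B at 2.48 and RPS12 at 5.94 and low for RPL12 at -0.074. RPL27 was at 1.43 on late arousal 3 (low). MRPS2 was at -1.16 on late arousal 2 (high), which is the arousal array on A2 filters. The mean over 9 mitochondrial ribosomal protein genes was high on early arousal 2, at 0.40.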

How the results depend on the processing

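The counts of genes called between states depended on the setting, and those between early and late torpor and between early and late arousal were 0 under every alternative run. Between T and A the count of 2 became 1 with normexp, 0 with quantile normalization, 6 with empty spots missing, 7 without dim probes, 8 with the filter block, 5 on A1 filters, 4 with the identifier prefix block, 7 in the fit over 5 groups, and 19 in the methods' test. Between T and P the count of 17 became 11 with normexp, 0 with the filter block, 1 on A1 filters, 9 with the prefix block, and 3 without the 3 dimmest arrays. Between A and P the count of 9 became 2, 1, 4, and 3 under the last 4 of these, and 23 in the methods' test. The share of all probes called moved as well. Between T and A it was 0.469%, and 0.177% with quantile normalization, 1.29% with the filter block, and 1.38% on A1 filters. For the filter block and A1 filters it was 0.969% and 0.896% between T and P, and 2.7% and 0.876% between A and P. No share was counted for the other settings or for arrays left out other than late torpor 1. Those counts are given without a comparison to all probes.

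Leaving out 1 array at a time gave 1 to 10 calls between T and A, 9 to 19 between T and P, and 4 to 20 between A and P. Between T and A the count was 10 without late torpor 1, 7 without post-reproduction 1, 6 without late arousal 2, and 1 without early arousal 4 or late torpor 5. It was 5 without late arousal 4 or post-reproduction 3, and 4 without early arousal 2 or 3, late arousal 1 or 3, or post-reproduction 2 or 7. Between T and P it was 9 without post-reproduction 4 or 6, 10 without post-reproduction 2 or 7, and 11 without early torpor 2 or 3 or post-reproduction 5. Between A and P it was 20 without late arousal 2, 15 without post-reproduction 1 or 3, 5 without early arousal 1 or post-reproduction 4, and 4 without post-reproduction 7.

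Medians of the cytosolic genes moved to 0.40 for T minus A with quantile normalization, and to -0.18 with normexp and -0.11 with quantile normalization for A minus P. Those of the mitochondrial genes moved from 0.25 to 0.092 with the filter block, 0.084 on A1 filters, and 0.14 without the 3 dimmest arrays for T minus P, and from -0.31 to -0.12 (normexp), -0.19 (quantile), and -0.21 (filter block) for A minus P. Those of the factors moved from 0.36 to 0.19 with normexp for T minus P, and from -0.033 to 0.24 with quantile normalization for A minus P. Leaving out 1 array gave 0.59 to 0.73, 0.16 to 0.31, and -0.49 to -0.36 for the cytosolic genes (T minus A, T minus P, and A minus P), 0.10 to 0.21, 0.18 to 0.33, and -0.39 to -0.23 for the mitochondrial genes, and 0.12 to 0.34, 0.30 to 0.42, and -0.22 to 0.066 for the factors.

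Of 612 differences of single genes under alternatives, 467 kept direction and side of the threshold, 102 lost a call, 22 gained one, and 21 turned sign. EEF1E1, T minus A, turned to 0.10 (normexp), 0.016 (quantile), 0.031 (filter block), 0.015 (A1 filters), and 0.0088 (5 groups), and lay at -0.060 to 0.086 when 1 array was left out. EIF4A1, T minus A, turned to 0.026 on A1 filters and lay at -0.20 to 0.033 when 1 array was left out. MRPS2, T minus A, turned to 0.11 with normexp. With the filter block and on A1 filters, MRPS14 turned to -0.19 in both for A minus P and to -0.0098 in both for T minus P, MRPS2, T minus P, to 0.089 and 0.084, RPL12, T minus P, to 0.16 and 0.27, RPL36A, A minus P, to -0.23 and -0.35, and RPL9, A minus P, to -0.050 and -0.27. RPL9, T minus P, turned to -0.048 on A1 filters and RPS27A, T minus P, to 0.037 with the filter block. The causes were not tested. No paired analysis was possible because each array is a separate animal. With 2 P arrays on A1 and 1 A array on A2, state and filter set are hard to separate. The same holds for P and the animal identifier prefix. Dim probes such as MRPS2 are measured close to background.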
